A study of Caenorhabditis elegans with 12 samples.

Results

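The 9 genes described here are irg-1 to irg-7, members of the infection response gene class of Caenorhabditis elegans, with zip-2 and zip-10, which code for transcription factors of the basic leucine zipper (bZIP) family. They were chosen by name, as 9 of the 46726 genes counted, and all 9 passed the filter on low counts that kept 16764 genes. The choice was made with earlier results of these data in view, among them the higher irg-5 level of mutants at day 0, so that difference is given as a description, with no test. A further gene of the class, irg-8, is not one of the 9, and its values are given once beside those of irg-4.

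Poly(A) RNA of whole adults was sequenced in 4 groups of 3 libraries, which the series describes as biological triplicates. They were N2, the laboratory wild type, at day 0 and at day 5 of adulthood, and a strain carrying the mir-71 allele n4115 at the same ages. Per the labels, animals were kept at 20 °C and transferred, around the molt to adulthood, to plates with 0.1 mg/mL 5-fluorodeoxyuridine (FUDR), an inhibitor of DNA synthesis that blocks the production of offspring, and the labels give this protocol for all 4 groups. RNA of all tissues was pooled in each library, and in such bulk samples fewer cells of a type and less RNA per cell cannot be told apart.

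Worms that feed on pathogenic bacteria induce sets of defence genes in the intestine through several pathways. One runs through ZIP-2, a bZIP factor needed for irg-1 induction by Pseudomonas aeruginosa and by blocked protein synthesis, whose own translation is controlled by upstream reading frames and which works with the partner factor CEBP-2. Another is the p38 MAP kinase cascade from TIR-1 to PMK-1 and the factor ATF-7, on which irg-4, irg-5 and irg-6, genes for CUB-like domain proteins, depend. The labels name no infection, so the values below are levels in culture with FUDR.

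The libraries held 20498966 to 65187052 counts, and a count of 3 in a library corresponded to 0.045 to 0.157 CPM (counts per 1000000, scaled by the trimmed mean of M-values, TMM). No read was counted for mir-71 itself in any library, N2 included, so the table does not check the genotype. ppfr-1, whose transcription unit holds mir-71, was higher in mutants at both ages (edgeR adjusted p = 0.00376 at day 0 and 0.000171 at day 5). Markers of all 7 tissues listed were detected in every group, with no marker at 0 throughout a group. Between the ages, summed sperm markers fell from between 73.4 and 296 CPM at day 0 to between 1.57 and 8.39 CPM at day 5, and body wall muscle, pharynx and epidermis sums also fell in both genotypes, as did the intestine sum in N2 (2840 to 5250 CPM, then 2180 to 2320). The intestine markers were split: of 7, 3 were called lower in N2 and 2, elt-2 and ges-1, higher, and in mutants 1 lower and 1 higher. Oocyte and germline sums rose (2060 to 3150 CPM at day 0, 3970 to 6450 at day 5), and neuron sums rose from between 260 and 292 CPM to between 344 and 529 CPM. Of the 5 neuron markers, 1 was called higher in N2 (snb-1, from 139 to 251 CPM) and 1 lower (ric-4). In mutants 2 were called higher and none lower. The part of these shifts in the members' changes with age was not tested. The day 0 libraries differed among themselves: sperm sums were 107 CPM in N2 replicate 1 and 73.4 and 129 CPM in mutant replicates 1 and 3, against 175 to 296 CPM in the other 3.

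With age, irg-3, irg-6, irg-7 and zip-10 rose in both genotypes and irg-4 fell in both. irg-5 passed the test in N2 and not in mutants, irg-2 and zip-2 in mutants and not in N2, and irg-1 passed in neither. In N2, 5 rose and 1 fell (adjusted p under 0.05 in the quasi-likelihood fit of edgeR), where 23.8% of all genes tested rose and 28.2% fell. In mutants, 6 rose and 1 fell, where 24.9% of all genes rose and 27.4% fell. The median log2 change was 1.18 over the members in N2 and 1.18 in mutants, beside -0.09 and 0.01 over all genes tested. CPM ranges of the ages did not overlap for 7 members in N2 and 7 in mutants, where 62% and 59.1% of all genes did not overlap. Between genotypes, irg-5 was higher in mutants at both ages, at day 0 without a test, and zip-10 was higher at day 5. p-values here rest on the spread between libraries within groups, shared over all 4 groups of 3.

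**Figure D1:**
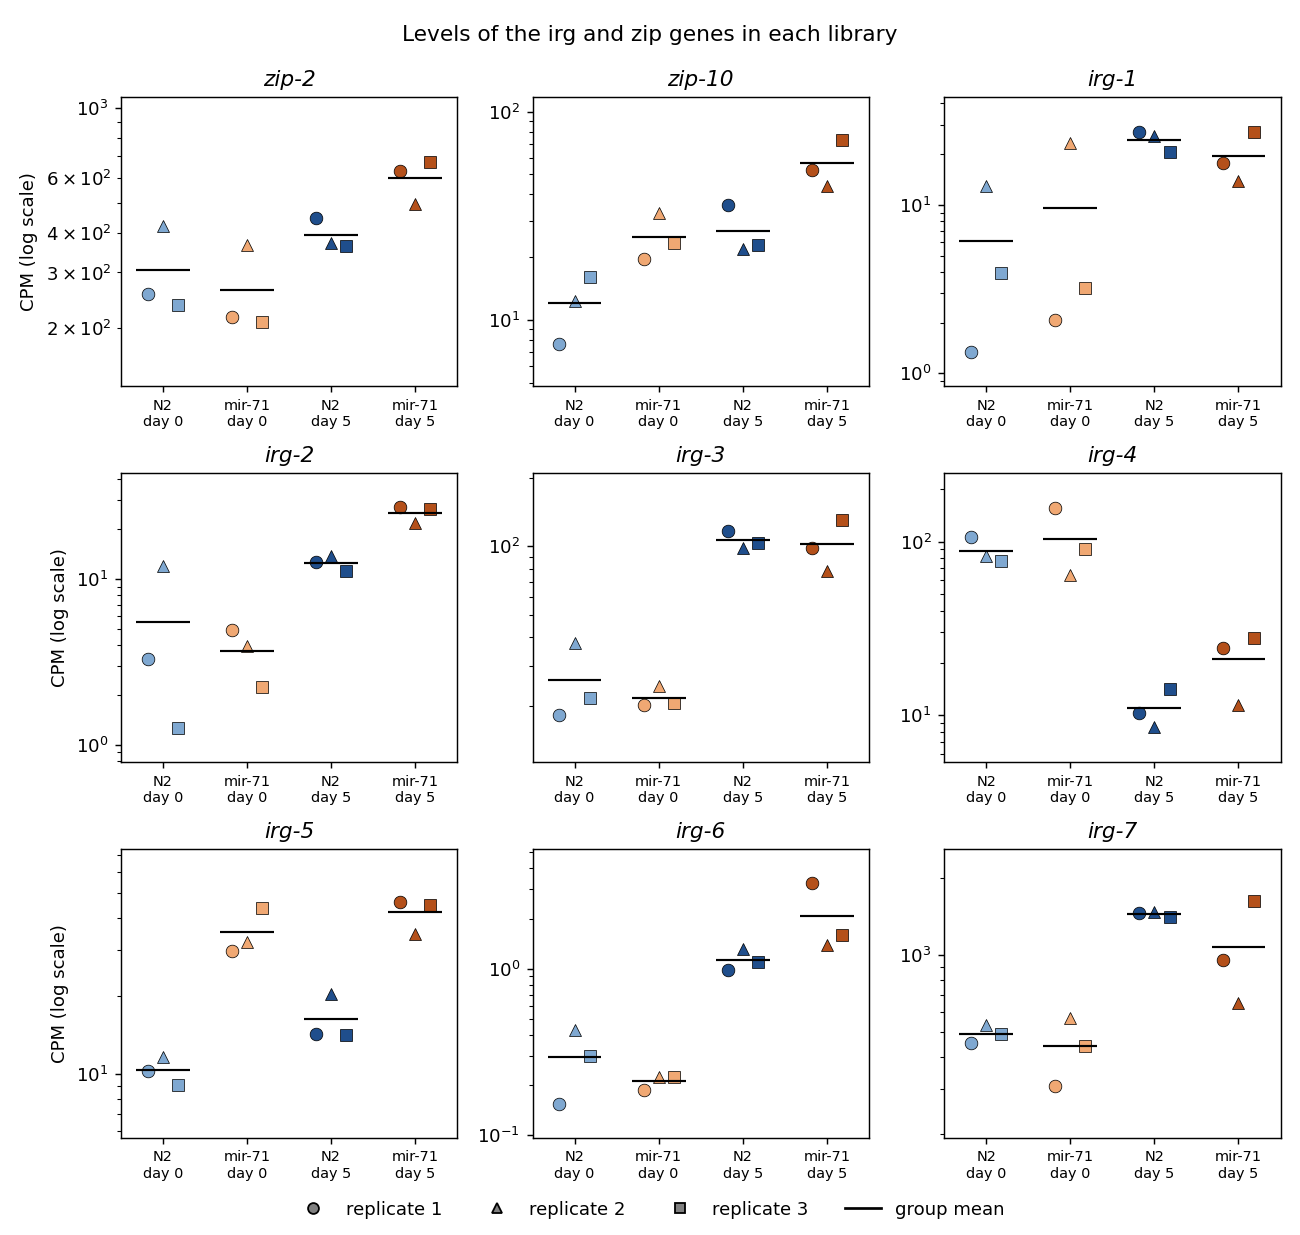
CPM of the 9 genes in each of the 12 libraries on log scales, by group, with replicate numbers as symbols and the group mean as a line. irg-4 is lower at day 5, irg-5 is higher in mutants at both ages without overlap, and irg-1 and zip-2 are highest at day 0 in the libraries numbered 2.

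zip-2 lies on chromosome III (III:832982-835814, plus strand, build WBcel235), with 4 to 6 exons in its transcripts. It shares 64 exonic bases with dos-3 on the other strand and 78 with the non-coding linc-37, and since the strand setting of the counting is not given, reads there cannot be assigned. At day 0 it had 257, 420 and 237 CPM in N2 replicates 1 to 3, and 217, 367 and 209 CPM in mutants. At day 5 it had 448, 372 and 363 CPM in N2, and 629, 495 and 674 CPM in mutants. All 3 mutant libraries at day 5 lay above every other library, whereas N2 overlapped between the ages, replicate 2 being high at day 0 in both genotypes. zip-2 rose with age in mutants (log2 1.18 ± 0.25 SE, n = 3 a group, edgeR adjusted p = 0.00189), while the N2 value was log2 0.37 ± 0.25 (adjusted p = 0.235). The mutant call was lost without the 3 day 0 libraries lowest in sperm markers (log2 0.67, adjusted p = 0.0814), an alternative chosen after seeing the data that leaves replicate 2 as the only mutant library at day 0 and takes its spread from the other groups. N2 passed the test once its day 0 replicate 2 was left out (log2 0.67, adjusted p = 0.037). At day 5 the mutants stood above N2 by log2 0.60 ± 0.25, which did not pass (adjusted p = 0.138) although the ranges did not overlap. That difference passed in 3 of 23 alternative settings.

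irg-1, the gene for which the ZIP-2 pathway was defined, lies on chromosome V (V:3523587-3524679, plus strand) and has 4 exons. Its day 0 levels were uneven. N2 had 1.34, 12.9 and 3.95 CPM, and mutants had 2.07, 23.3 and 3.22 CPM. At day 5 the values were 26.9, 25.5 and 20.5 CPM in N2 and 17.7, 13.9 and 27.2 CPM in mutants. Replicate 2 was thus several times above its day 0 neighbours in both genotypes, and in mutants it reached the day 5 range. With that spread, neither age comparison passed, at log2 1.99 ± 0.85 in N2 (edgeR adjusted p = 0.0666), where the ranges did not overlap, and 1.02 ± 0.83 in mutants (adjusted p = 0.323). The N2 change passed in 10 of the 23 alternative settings, among them a fit to the N2 groups alone (log2 1.96, adjusted p = 0.0291). It also passed without mutant day 0 replicate 1 (adjusted p = 0.0374) or 2 (adjusted p = 0.0101), which bear on it only through the shared spread. Leaving out replicate 2 of N2 at day 0 gave log2 3.21 (adjusted p = 0.0143), and leaving out that of mutants gave 2.91 (adjusted p = 0.00467). Without the 3 day 0 libraries lowest in sperm markers, the mutants at day 0 are replicate 2 alone, and the mutant value against that single library was -0.30. Genotypes overlapped at both ages, with 95% intervals of the log2 difference from -1.14 to 2.46 at day 0 and from -2.09 to 1.46 at day 5.

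irg-2, also ZIP-2-linked, lies on chromosome V (V:4042181-4043601, plus strand, 4 exons). Its day 0 values were 3.28, 12 and 1.26 CPM in N2 and 4.9, 3.96 and 2.24 CPM in mutants. At day 5 it had 12.6, 13.8 and 11.1 CPM in N2 and 27.2, 21.8 and 26.3 CPM in mutants. N2 replicate 2 again stood out at day 0, but mutant replicate 2 did not, in contrast to irg-1. irg-2 rose in mutants (log2 2.75 ± 0.60, edgeR adjusted p = 0.00203). N2 gave log2 1.18 ± 0.57 (adjusted p = 0.102), which became 2.45 (adjusted p = 0.000521) without N2 replicate 2 at day 0. All mutant libraries at day 5 lay above all of N2, with a log2 difference of 1.00 ± 0.56 that did not pass in the fit over all groups (adjusted p = 0.268) and passed in a fit to the day 5 groups alone (adjusted p = 0.00232).

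**Figure D2:**
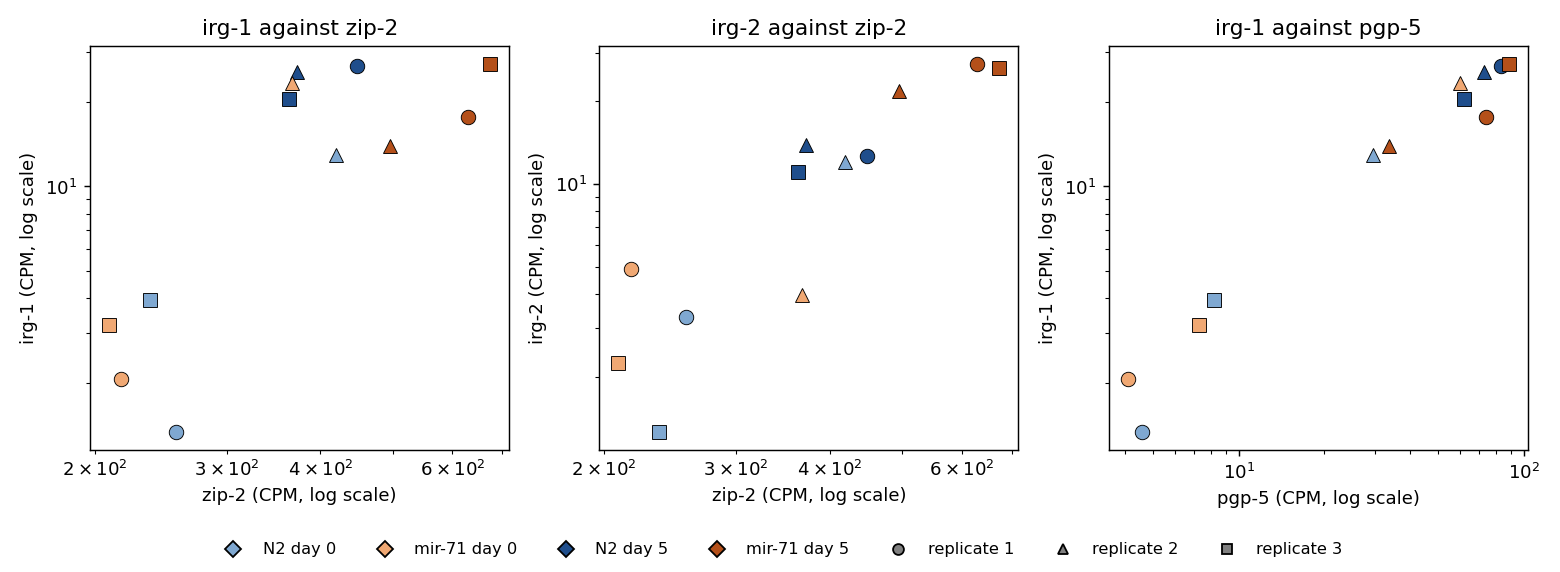
CPM of irg-1 and irg-2 against zip-2, and of irg-1 against pgp-5, one point for each of the 12 libraries on log scales, with colour for the group and symbol for the replicate number. For irg-1 and pgp-5, mutant day 0 replicate 2 lies among the day 5 libraries and N2 day 0 replicate 2 just below them, and mutant day 0 replicate 2 is high in irg-1 and low in irg-2.

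The gene most like irg-1 over the 12 libraries was pgp-5, which codes for an ABC transporter, with a root mean square difference of 0.31 in mean-centred log2 CPM, beside an SD of 1.57 for irg-1 itself. pgp-5 had 4.6, 29.6 and 8.23 CPM in N2 and 4.08, 60 and 7.24 CPM in mutants at day 0, so its replicate 2 was high in both genotypes too. The next genes, acl-12 and swt-7, were less like it (0.65 and 0.66). irg-2 had a different set of likest genes, C45B11.2 (0.34), C49G7.10 (0.37) and Y58A7A.3 (0.45). C49G7.10 lies 159 bases from irg-2, and its group means were 19.1 and 44.1 CPM in N2 and 20.4 and 97.2 CPM in mutants at day 0 and day 5. The difference between irg-1 and irg-2 on that measure was 1.11, larger than that of either from irg-3 (0.86 and 0.69). zip-2 was closest to sdc-2 (0.13), a regulator of X chromosome dosage compensation, and to W09D6.5 (0.17) and svh-2 (0.19). These likenesses rest on libraries that share their group structure and are given without a test.

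zip-10, a bZIP factor linked to the response to cold and controlled through ISY-1 and the microRNA mir-60, lies on chromosome V (V:11650079-11650762, minus strand, 2 exons). Only 12 bases overlap skp-1 on the other strand. In N2 it had 7.68, 12.3 and 16.1 CPM at day 0 and 35.6, 21.8 and 23 CPM at day 5. In mutants it had 19.5, 32.5 and 23.3 CPM at day 0 and 52.7, 43.9 and 73.2 CPM at day 5. Ages did not overlap in either genotype, and mutants lay above N2 at each age without overlap. N2 at day 5 and mutants at day 0 covered nearly the same range. The rise with age was log2 1.15 ± 0.30 in N2 (edgeR adjusted p = 0.00658) and 1.17 ± 0.30 in mutants (adjusted p = 0.00556). The mutants stood 2.11-fold above N2 at day 5 (log2 1.08 ± 0.30, adjusted p = 0.0388). At day 0 the difference was 2.09-fold (log2 1.06 ± 0.30), which did not pass over all genes (adjusted p = 0.649).

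The day 5 call of zip-10 was close to the threshold. It was lost with relative log expression (RLE) factors in place of TMM (adjusted p = 0.0523) and without any of 5 libraries: N2 day 5 replicate 2 (0.0941) or 3 (0.164), mutant day 0 replicate 3 (0.0565), and mutant day 5 replicate 1 (0.103) or 3 (0.125). The log2 value stayed between 0.72 and 1.34 over all 23 alternative settings. The mutant rise with age was lost without the 3 day 0 libraries lowest in sperm markers (log2 0.76, adjusted p = 0.0827), where the day 0 arm is replicate 2 alone, the highest of its group.

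Of 3 genes linked to zip-10, asp-17 and cpr-3, which code for an aspartyl and a cathepsin B-like protease, rose with age in both genotypes. Of all genes tested, 23.8% rose in N2 and 24.9% in mutants. asp-17 went from 20.6 ± 5.8 to 109 ± 21 CPM in N2 (SD, n = 3; log2 2.41 ± 0.23 SE, edgeR adjusted p = 7e-06) and from 10.9 ± 0.873 to 96 ± 24 CPM in mutants (log2 3.13 ± 0.24, adjusted p = 1.83e-06). cpr-3 went from 16 ± 2.48 to 35.1 ± 5.93 CPM in N2 (log2 1.14 ± 0.22, adjusted p = 0.000888) and from 15.1 ± 3.32 to 33.2 ± 7.86 CPM in mutants (log2 1.14 ± 0.22, adjusted p = 0.00086). isy-1 passed in neither. None of the 3 passed between genotypes, and asp-17, whose day 0 ranges did not overlap, was lower in mutants there (log2 -0.92 ± 0.22, adjusted p = 0.357), the opposite direction to zip-10.

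Among the 25 other bZIP genes tested, 7 rose and 1 fell with age in N2, and 10 rose and 4 fell in mutants. Over all genes tested, 23.8% rose and 28.2% fell in N2, and 24.9% rose and 27.4% fell in mutants. The median log2 change of the list was -0.06 in N2 and 0.29 in mutants, beside -0.09 and 0.01 over all genes. zip-4 went from 51.9 ± 3.97 to 110 ± 12.1 CPM in N2 (log2 1.08 ± 0.13, edgeR adjusted p = 2.72e-05), and zip-8 from 0.457 ± 0.0933 to 2.05 ± 1.01 CPM (log2 2.17 ± 0.41, adjusted p = 0.000824). atf-8 fell in N2 from 1.06 ± 0.56 to 0.118 ± 0.0621 CPM (log2 -2.98 ± 0.56, adjusted p = 0.000753), a level near that of 3 counts. In mutants the smallest p-values were those of zip-8 (log2 2.62 ± 0.41, adjusted p = 0.000219), zip-4 (0.79 ± 0.13, adjusted p = 0.000225) and crh-2 (0.54 ± 0.11, adjusted p = 0.00154). Between genotypes, none passed at day 0. At day 5, 1 passed, atfs-1, the factor of the mitochondrial unfolded protein response, which was lower in mutants (44.4 ± 4.59 against 67 ± 13.6 CPM, log2 -0.59 ± 0.17, adjusted p = 0.0437). Of all genes tested, 519 of 16764 were called lower in mutants at day 5. The atfs-1 call was close to the threshold and was not followed through the alternative settings.

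irg-4 lies on chromosome IV (IV:12435833-12438236, plus strand, 7 exons) and codes for a CUB-like domain protein. At day 0 it had 106, 83 and 77.1 CPM in N2 and 155, 64.2 and 90 CPM in mutants. At day 5 it had 10.3, 8.61 and 14.2 CPM in N2 and 24.3, 11.4 and 27.9 CPM in mutants. Every day 5 library was far below every day 0 library. irg-4 fell by 3.02 ± 0.38 on the log2 scale in N2 (8.1-fold, edgeR adjusted p = 4.29e-05) and by 2.28 ± 0.36 in mutants (4.87-fold, adjusted p = 0.000225), and both calls held in all 23 alternative settings. At day 5 mutants were at 21.2 ± 8.69 CPM against 11 ± 2.86 CPM in N2, with overlapping ranges and a log2 difference of 0.95 ± 0.36 that did not pass (adjusted p = 0.107). That difference passed in 5 of the 23 alternative settings. Its likest genes were grd-5 (0.30), of the hedgehog-related groundhog family, the lysozyme gene lys-4 (0.38) and Y39D8A.1 (0.39), which is the neighbour of irg-8. irg-8, outside the set, also fell with age, by 1.55 ± 0.28 on the log2 scale in N2 (adjusted p = 0.000535) and by 1.79 ± 0.28 in mutants (adjusted p = 0.000191).

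irg-5 lies on chromosome V (V:13737010-13738474, minus strand, 7 exons), overlaps no other annotated gene, and also codes for a CUB-like domain protein. In N2 it had 10.3, 11.6 and 9.07 CPM at day 0 and 14.3, 20.3 and 14.1 CPM at day 5. In mutants it had 29.7, 32.3 and 43.8 CPM at day 0 and 46.2, 34.7 and 44.9 CPM at day 5. The 6 mutant libraries all lay above the 6 N2 libraries, and the highest N2 value, at day 5, was below the lowest mutant value, at day 0. The order of the groups was N2 day 0, N2 day 5, mutants day 0, mutants day 5, and only the last neighbours in that order overlapped.

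At day 0, irg-5 was 3.41-fold higher in mutants (log2 1.77 ± 0.21 SE, n = 3 a group). This difference was known when the genes were chosen, so no call is given for it. Among the members other than irg-5, none passed the test at day 0, where 0.0716% of all genes tested were called higher. In all, 22 genes were called at day 0, and 62 with the replicate number as a block in the day 0 groups. The irg-5 difference stayed between log2 1.19 and 1.92 in all 23 alternatives. Its standing against the threshold changed between these settings, and no call is read from any of them. With irg-5 left out of the count, zip-10 was the only member whose mutant libraries all lay above N2 at day 0, where 5.02% of all genes did.

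At day 5, irg-5 was 2.58-fold higher in mutants (log2 1.37 ± 0.20, edgeR adjusted p = 0.00182), and this call held in all 23 alternatives. irg-5 and zip-10 were the 2 of 9 members that passed at day 5, where 7.63% of all genes were called higher. Mutant libraries all lay above N2 for 5 members (zip-2, zip-10, irg-2, irg-5 and irg-6), where 22.3% of all genes did. The fit to the day 5 groups alone called 4 members, all higher, where 2033 of the 14925 genes tested in that fit were called higher. The median log2 difference over the members was 0.87, beside 0.05 over all genes. Marker sums of 5 tissues were also higher in mutants at day 5, without overlap. They were intestine (2840 to 4660 against 2180 to 2320 CPM), body wall muscle (1990 to 2160 against 1080 to 1260), pharynx (223 to 276 against 74.8 to 116), epidermis (264 to 445 against 87.9 to 136) and neurons (453 to 529 against 344 to 412). Of the 7 intestine markers, 2 were called higher and 1, ges-1, lower. Called higher were also 2 of 5 body wall muscle, 2 of 4 pharynx, 1 of 4 epidermis and 2 of 5 neuron markers, with none lower. The epidermis sum was almost all col-19, at 325 ± 104 CPM in mutants and 113 ± 24.4 CPM in N2. The part of these sums in the members' differences was not tested.

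The change of irg-5 with age was small. It rose in N2 by log2 0.65 ± 0.20 (edgeR adjusted p = 0.0171), a call lost with upper-quartile factors (0.0569) and without N2 day 0 replicate 3 (0.0671) or N2 day 5 replicate 2 (0.0905). Upper-quartile factors also moved the median change of all genes in N2 from -0.09 to -0.22. In mutants the change was log2 0.25 ± 0.20 (adjusted p = 0.314), with a 95% interval from -0.18 to 0.69. The difference between those changes did not pass (log2 -0.40 ± 0.29, adjusted p = 0.554).

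**Figure D3:**
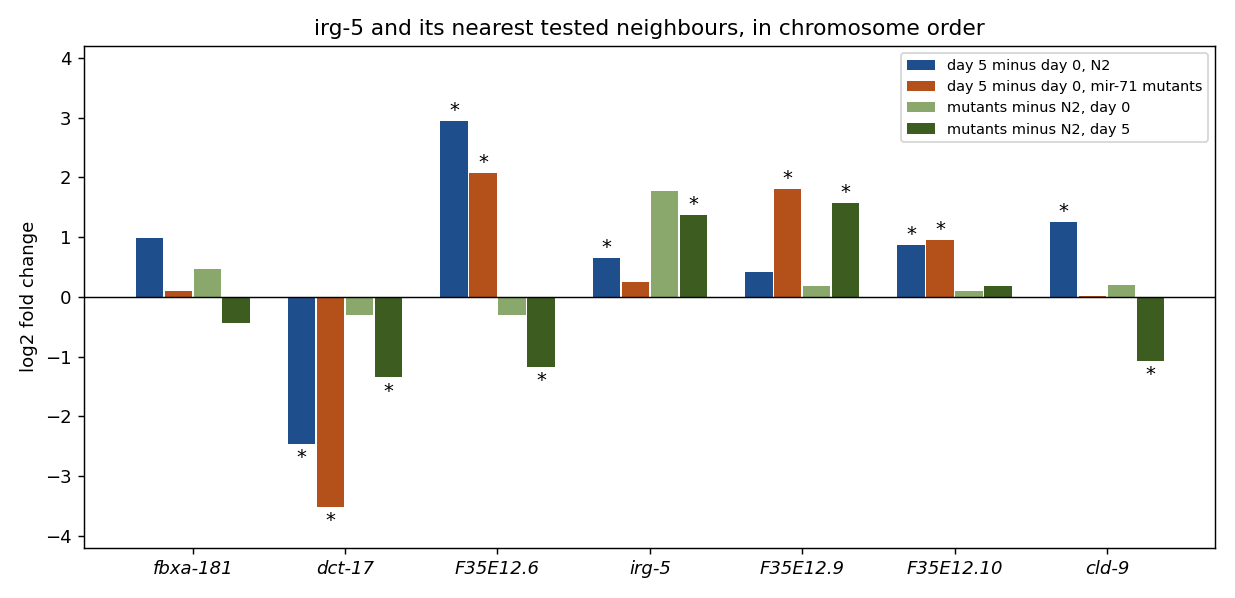
log2 fold changes of irg-5 and its 3 nearest tested genes on each side, in chromosome order, for 4 comparisons, with an asterisk where the adjusted p is under 0.05, and no test marked for irg-5 at day 0. None of the 6 neighbours is marked at day 0 between genotypes, and at day 5 dct-17, F35E12.6 and cld-9 are marked lower in mutants while irg-5 and F35E12.9 are marked higher.

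The genes beside irg-5 moved in other ways. F35E12.6, 762 bases away, rose from 85.9 to 663 CPM in N2 and from 69.8 to 293 CPM in mutants (group means), and was lower in mutants at day 5 (log2 -1.18, edgeR adjusted p = 0.00567). dct-17, 6225 bases away and also of the CUB-like group, fell from 261 to 47.1 CPM in N2 and from 212 to 18.5 CPM in mutants, and was lower in mutants at day 5 (log2 -1.35, adjusted p = 0.0258). F35E12.9, on the other side, was higher in mutants at day 5 (log2 1.57, adjusted p = 0.00432), at 24.7 against 8.28 CPM. At day 0 none of the 6 neighbours passed between genotypes. The genes most like irg-5 in pattern lay elsewhere and were low, namely T27A1.2 (0.31, beside an SD of 0.88 for irg-5), K08B4.7 (0.35) and ZC317.2 (0.40). T27A1.2 had means of 1.17 and 2.22 CPM in N2 and 3.49 and 4.29 CPM in mutants, at day 0 and day 5.

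irg-6, the third CUB-like gene of the set, lies on chromosome IV (IV:12912722-12914969, minus strand, 8 or 9 exons) and was close to the limit of counting at day 0. Day 0 libraries held 6 to 22 of its counts in N2 and 5 to 15 in mutants. That corresponded to 0.155, 0.428 and 0.299 CPM in N2 and 0.187, 0.225 and 0.224 CPM in mutants. At day 5 it had 0.977, 1.31 and 1.1 CPM in N2 and 3.28, 1.38 and 1.59 CPM in mutants. Ages were fully separated in both genotypes, and the mutants at day 5 lay just above N2. irg-6 rose by log2 1.92 ± 0.43 in N2 (edgeR adjusted p = 0.00245) and 3.29 ± 0.44 in mutants (adjusted p = 6.34e-05). The genotype difference at day 5 did not pass (log2 0.87 ± 0.39, adjusted p = 0.162).

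Of 8 other CUB-like and p38-linked effector genes, 7 were tested. The 8 were chosen by name and do not stand for all CUB-like genes. Those tested mostly fell with age, as irg-4 did and irg-5 and irg-6 did not. In N2, 4 fell and 1 rose, with a median log2 change of -2.04, and in mutants 5 fell and none rose, with a median of -2.36. Of all genes tested, 28.2% fell in N2 and 27.4% in mutants. dod-22 fell from 33 ± 16.8 to 1.24 ± 0.319 CPM in N2 (log2 -4.73 ± 0.37, edgeR adjusted p = 2.3e-06) and from 29.2 ± 2.18 to 1.59 ± 0.346 CPM in mutants (log2 -4.2 ± 0.36, adjusted p = 3.18e-06). dod-24 fell by 2.04 ± 0.33 on the log2 scale in N2 (adjusted p = 0.000254) and by 2.66 ± 0.33 in mutants (adjusted p = 4.06e-05). Between genotypes none passed at day 0. At day 5, dct-17 and sysm-1 were lower in mutants, sysm-1 at 33.8 ± 13 against 105 ± 2 CPM (log2 -1.63 ± 0.44, adjusted p = 0.0356), the opposite direction to irg-5. Of all genes tested, 519 of 16764 were called lower in mutants at day 5.

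In the p38 cascade itself, 3 of 6 genes rose and 1 fell with age in each genotype. Shares over all genes were 23.8% rising and 28.2% falling in N2, and 24.9% and 27.4% in mutants. vhp-1, the phosphatase that restrains the pathway, had the smallest p in both, going from 65.8 ± 10.8 to 133 ± 5.6 CPM in N2 (log2 1.02 ± 0.20, edgeR adjusted p = 0.00116) and from 63.9 ± 19.5 to 160 ± 22.1 CPM in mutants (log2 1.33 ± 0.20, adjusted p = 0.000181). pmk-1, the kinase, rose by log2 0.70 ± 0.17 (adjusted p = 0.00459) and 0.65 ± 0.17 (adjusted p = 0.00692). In N2 the gene that fell was the kinase gene nsy-1 (log2 -0.79 ± 0.22, adjusted p = 0.00864). In mutants it was the factor gene atf-7 (log2 -0.47 ± 0.17, adjusted p = 0.0304), with overlapping ranges and counted among the bZIP genes as well. tir-1, the adaptor at its head and a reported mir-71 target, was the only gene of the 6 that passed between genotypes, at day 5 (102 ± 12.5 CPM in mutants against 56.6 ± 4 CPM, log2 0.85 ± 0.25, adjusted p = 0.0461). At day 0 it was at 33.6 ± 13.9 CPM in mutants against 30.8 ± 6.4 CPM. Of all genes tested, 7.63% were called higher in mutants at day 5. The tir-1 call was close to the threshold and was not followed through the alternative settings.

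irg-7, which codes for a large protein with lectin and von Willebrand-type domains and has been linked to the p38 pathway and to the long life of worms without a germline, lies on chromosome X (X:3235754-3243636, minus strand, 23 exons). At day 0 it had 454, 533 and 491 CPM in N2 and 309, 569 and 442 CPM in mutants. At day 5 N2 had 1460, 1470 and 1410 CPM, whereas mutants had 957, 652 and 1630 CPM. The N2 libraries were nearly alike at day 5, and the mutant libraries spread from below to above them. irg-7 rose by log2 1.55 ± 0.29 in N2 (edgeR adjusted p = 0.00071) and 1.30 ± 0.29 in mutants (adjusted p = 0.00229), and the mutant call was lost without the 3 day 0 libraries lowest in sperm markers (log2 0.88, adjusted p = 0.0713), where replicate 2, the highest of its group, is the only day 0 mutant library. The 95% interval of the log2 genotype difference at day 5 was -1.03 to 0.19. Its likest genes were aagr-2 (0.14), of the glucosidases, the lectin gene clec-173 (0.15) and nspg-10 (0.19).

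irg-3, a gene induced by Pseudomonas aeruginosa, lies on chromosome V (V:2592591-2595062, plus strand, 3 or 4 exons). It had 18.2, 37.9 and 21.8 CPM in N2 and 20.3, 24.4 and 20.7 CPM in mutants at day 0. At day 5 it had 117, 98.1 and 104 CPM in N2 and 98.3, 77.7 and 131 CPM in mutants. Both genotypes were fully separated by age and overlapped with each other. irg-3 rose by log2 2.03 ± 0.26 in N2 (edgeR adjusted p = 4.44e-05) and 2.23 ± 0.26 in mutants (adjusted p = 2.32e-05), and both calls held in all 23 alternatives. Genotype differences lay within log2 -0.79 to 0.29 at day 0 and -0.59 to 0.48 at day 5 (95% intervals). sid-2, a gene for a double-stranded RNA importer of the gut, was the likest gene (0.23).

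**Figure D4:**
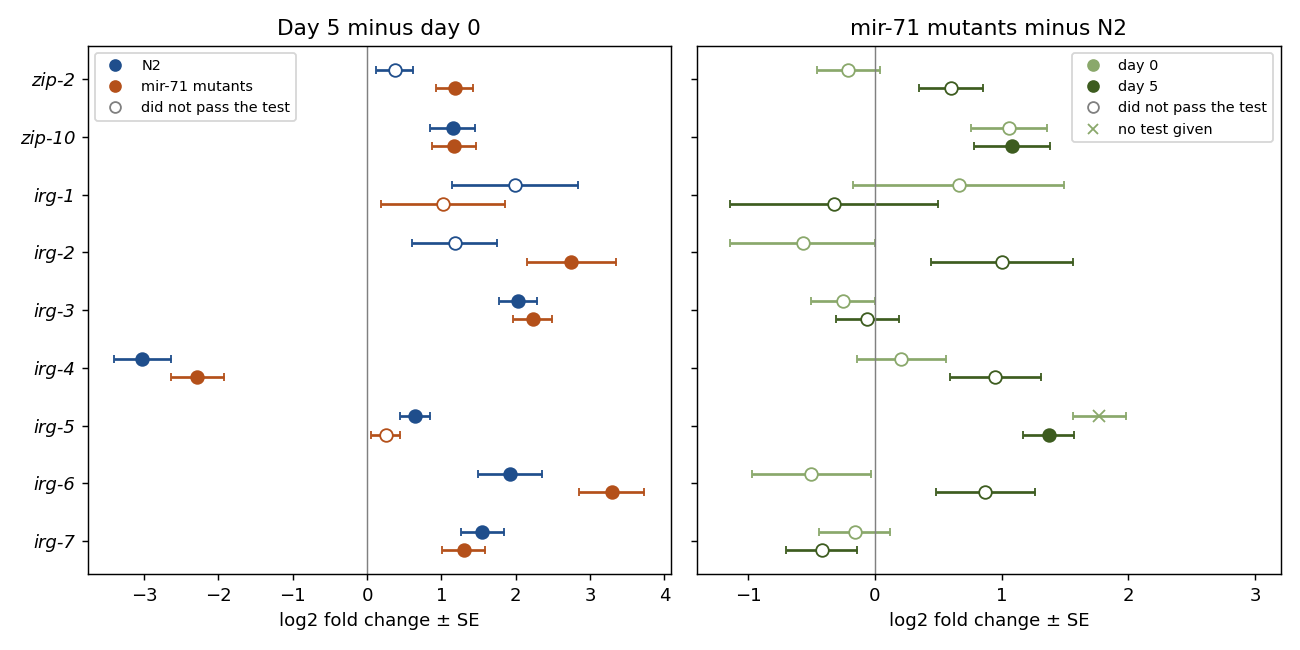
log2 fold change ± SE of the 9 genes with age in each genotype (left) and between genotypes at each age (right), with open circles where the adjusted p is 0.05 or above and a cross for irg-5 at day 0, for which no test is given. irg-4 alone is negative with age, and at day 5 irg-5 and zip-10 hold the filled circles on the right.

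Between genotypes in the change with age, no member passed (edgeR, 0 of 9, and 0 of 9 by DESeq2). Over all genes, 0.555% passed by edgeR and 559 of 16763 by DESeq2. At an unadjusted threshold of 0.05, 2 members passed, where 14.3% of all genes did. They were zip-2 (log2 0.81 ± 0.35, edgeR adjusted p = 0.328) and irg-6 (1.37 ± 0.61, adjusted p = 0.332). For irg-1 and irg-2 the 95% intervals of that difference ran from -3.50 to 1.55 and from -0.17 to 3.31, so changes of several-fold were not detectable at this spread. A call for zip-2 and irg-2 in mutants and none in N2 is therefore not shown to be a difference between genotypes.

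Per kilobase of exon, zip-2 was the highest member in every group, from 182 ± 61.1 CPM per kb in mutants at day 0 to 412 ± 63.8 at day 5. At day 0 in N2 it was followed by irg-4 (80.6 ± 14), irg-7 (72.2 ± 5.81) and irg-3 (36.3 ± 14.6), the first pair of which did not differ beyond their SD. At day 5 in N2, irg-7 (212 ± 5.07) and irg-3 (149 ± 13.9) followed zip-2 (271 ± 32), and irg-4 (10 ± 2.6) was near irg-2 (10.8 ± 1.17). zip-10 ranged from 19 ± 6.64 to 89.4 ± 23.8 CPM per kb over the groups, and irg-6 was lowest throughout, at 0.126 ± 0.0128 to 1.24 ± 0.622.

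**Figure D5:**
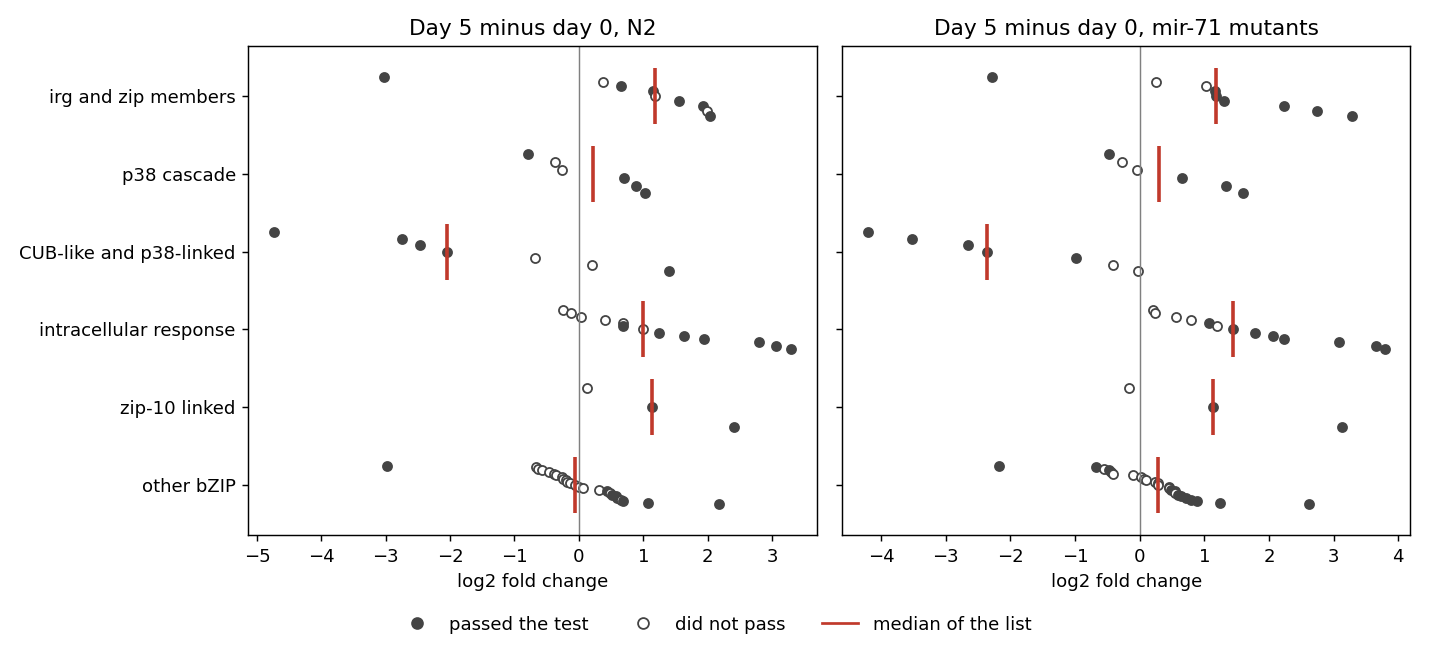
log2 change with age of every tested gene of the 9 members and 5 other lists, in N2 (left) and mutants (right), filled where the adjusted p is under 0.05, with the median of each list as a line. Medians of the members and of the intracellular response list lie above 0, and that of the CUB-like and p38-linked list lies below -2 in both genotypes.

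Genes of the intracellular pathogen response, a programme set off by microsporidia and virus, were followed as a contrast to those induced by bacteria. Of 15 listed, 13 could be tested. With age 7 rose and none fell in N2, with a median log2 change of 1, and 8 rose and none fell in mutants, with a median of 1.44. Shares over all genes were 23.8% and 24.9% rising with age, and 7.63% higher in mutants at day 5. pals-6 went from 0.558 ± 0.223 to 5.42 ± 1.79 CPM in N2 (log2 3.29 ± 0.38, edgeR adjusted p = 2.33e-05), eol-1 from 0.332 ± 0.111 to 2.78 ± 0.832 CPM (3.06 ± 0.35, adjusted p = 2.34e-05), and skr-4, for a ubiquitin ligase subunit, from 14.2 ± 2.09 to 33.4 ± 3.83 CPM (1.24 ± 0.19, adjusted p = 0.000168). Between genotypes, none passed at day 0, and at day 5 F26F2.1 (log2 1.47 ± 0.40, adjusted p = 0.0385) and skr-3 (0.75 ± 0.22, adjusted p = 0.0442) were higher in mutants.

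Of 13 other regulators of immunity, 4 rose with age in N2 and 7 in mutants, with none falling. Over all genes, 23.8% and 24.9% rose with age, and 7.63% were higher in mutants at day 5. The intestinal GATA factor gene elt-2 rose by log2 1.61 ± 0.37 in N2 (edgeR adjusted p = 0.0029) and 1.88 ± 0.37 in mutants (adjusted p = 0.0011). At day 5, 3 were higher in mutants: hlh-30, a regulator of autophagy and defence (157 ± 39.1 against 86.4 ± 15.3 CPM, log2 0.86 ± 0.24, adjusted p = 0.0383), pqm-1 (0.81 ± 0.22, adjusted p = 0.0387) and elt-3 (1.21 ± 0.34, adjusted p = 0.0414). None passed at day 0.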

How the data were processed

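The members and lists were chosen with earlier results of these data known. Tests used the read counts per gene and library that the authors deposited without scaling. The authors also deposited log2 values (rlog, regularized log2 of scaled counts), used as an alternative. Per the submitters' processing notes, the tools and build were STAR 2.4.0h, DESeq2 and WBcel235, with no step given for each. Not given in the sources used here were the read counter, annotation and strand. Of 46726 gene IDs, 43623 matched a symbol.

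In R 4.3.3, TMM factors (0.868 to 1.17) scaled the counts, filterByExpr kept 16764 genes, and edgeR 4.0.16 fitted 1 model of 4 group means over 12 libraries (8 residual degrees of freedom). Quasi-likelihood F-tests were adjusted by Benjamini-Hochberg within each of 5 contrasts (threshold 0.05). An SE is the log2 fold change divided by the root of F. The fit was tested on simulated counts. Depth was 20498966 to 65187052 counts a library, and floors cover counting error only.

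Named genes were the members, at most the 3 smallest p-values of each list per contrast, and the 3 genes with the smallest root mean square difference of mean-centred log2 CPM. Neighbours, irg-8, ppfr-1 and atf-7 in mutants were added outside that rule. Alternatives were other factors (RLE, upper quartile, TMM without sperm, vitellogenin and collagen families), no filter, DESeq2 1.42.0, limma 3.58.1 on rlog values, only the groups compared, a replicate block, and leaving out libraries.

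Replicate numbers come from the sample titles. At day 0, deviations of same-numbered N2 and mutant libraries from their group means correlated at 0.76, 0.66 and 0.28, all above 0.1, so the numbers were taken to pair the samples there. Unlike numbers also reached 0.12 and 0.15 at day 0, so the rule does not establish the pairing of every number. The main fit used no replicate block. In the other comparisons at least 1 pair was below 0.1. No replicate pair agreed within sampling noise (chi-square per gene 22.8 to 308). Positions come from the Ensembl annotation of WBcel235.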

Additional observations from a re-analysis of the deposited data

Results flagged for a closer look

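The bZIP gene atf-2 had fold changes with age of opposite sign in the genotypes, of which the mutant rise passed narrowly (log2 0.71 ± 0.28, edgeR adjusted p = 0.0495) and the N2 value did not (-0.63 ± 0.28, adjusted p = 0.0817). It went from 3.73 ± 1.38 to 2.4 ± 0.296 CPM in N2 and from 2.73 ± 0.571 to 4.45 ± 0.309 CPM in mutants (SD, n = 3 a group), with all day 5 libraries below day 0 in N2 and above day 0 in mutants. The difference between those changes was log2 1.34, which did not pass over all genes (edgeR adjusted p = 0.165). Members and listed genes other than tissue markers were flagged where that difference passed, or where the ages separated in opposite directions in the genotypes. atf-2 met only the second condition, so the separation is how it was picked.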

How the results depend on the processing

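Added alternatives left out both day 0 libraries numbered 2, or the 3 day 0 libraries lowest in sperm markers, and were chosen after seeing the data; the second leaves 1 mutant library at day 0, assumed to vary like the other groups. Leaving out 1 library at a time gave 5 to 9 members called with age in N2 and 7 to 8 in mutants. It gave 1 to 3 between genotypes at day 5 and 0 to 0 for the difference in the change with age. Over all genes, in the same order, it gave 7460 to 9283, 7671 to 8827, 602 to 2378 and 10 to 460. Between genotypes at day 0 it gave 5 to 19 over all genes. Members at day 0 are counted without irg-5, whose difference is given without a test, and none was called. The fit to the compared groups also called 0 of them at day 0. At day 5, members called were 1 with RLE factors, 4 in the compared groups and 4 without the libraries numbered 2. Without the sperm-low libraries 4 members were called with age in mutants.

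Over all genes at day 0, 22 calls became 61 with DESeq2, 0 in the compared groups, 13 without the libraries numbered 2 and 7 without the sperm-low libraries. At day 5, 1798 became 2975 with DESeq2 and 2770 in the compared groups. For the difference in the change with age, 93 became 245 with no filter, 559 with DESeq2, 162 with limma on rlog values, 234 without the libraries numbered 2 and 16 without the sperm-low ones. A replicate block in the compared groups gave 62 calls at day 0, and 3121 calls and 5 members at day 5, and a block over all libraries gave 233 for the difference. Numbers were taken to pair the samples at day 0 only. With the block there, none of the members other than irg-5, for which no call is given, passed.

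Signs reversed only where no call was made. Without the libraries numbered 2, the day 0 genotype difference (log2) was -0.02 for irg-1, 0.68 for irg-2 and 0.03 for irg-3, and the difference in the change with age was -0.09 for irg-3. Without the sperm-low libraries, irg-1 changed with age in mutants by -0.30, the day 0 difference was -0.32 for irg-4, 0.15 for irg-7 and 0.15 for zip-2, and the difference in the change with age was -0.15 for zip-10, where RLE factors and DESeq2 gave -0.06 and -0.06 and the block -0.05. Upper-quartile factors gave 0.01 for irg-3 at day 5. Leaving out 1 library gave, at day 0, -1.23 to 1.88 for irg-1, -1.03 to 0.71 for irg-2, -0.45 to 0.13 for irg-3, -0.19 to 0.47 for irg-4, -0.39 to 0.05 for irg-7 and -0.52 to 0.10 for zip-2, at day 5 -0.27 to 0.11 for irg-3, and for the difference in the change with age -2.19 to 0.92 for irg-1, -0.18 to 0.40 for irg-3, -0.68 to 0 for irg-7 and -0.25 to 0.28 for zip-10. The causes were not tested. With 3 libraries a group, the uneven day 0 levels of irg-1 and irg-2 and the few counts of irg-6 limit what could be detected.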
